A study of Mus musculus with 2 samples.

Results

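The CCN family consists of secreted, cysteine-rich proteins that sit in the extracellular matrix, bind integrins, proteoglycans and growth factors, and thereby modulate adhesion and growth signaling. Here it was followed through the 5 genes Ctgf, Cyr61, Nov, Wisp1 and Wisp2, chosen by name as the array spells them, among 37074 gene names on the array. The current mouse symbols are Ccn2 for Ctgf, Ccn1 for Cyr61, Ccn3 for Nov, Ccn4 for Wisp1 and Ccn5 for Wisp2. Ctgf and Cyr61 are textbook targets of the YAP/TAZ-TEAD transcription complex and also respond to TGF-β and to serum response factor. Wisp1 and Wisp2 take their names from their induction by Wnt1, and Wisp2 lacks the C-terminal cysteine-knot domain that the other members carry.

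The question was how these genes responded when the β-catenin pathway was activated in odontogenic epithelial cells. mDE6 is a mouse cell line labelled as odontogenic epithelium. Control cells received the vehicle DMSO and treated cells CHIR99021, a GSK-3 inhibitor that stabilises β-catenin, both for 6 h, with 1 array each. The labels give the dose as 5 mM, whereas the methods of the study give 5 μM and an untreated control. Both arrays lie on 1 slide, so position on the slide and treatment cannot be told apart, and with 1 array per condition there was no replicate error and no test.

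RNA was labelled with Cy3 and hybridised to Agilent arrays, and between 48.3% and 49.8% of the spots were well above background. None was saturated. The number of arrays limits the precision. Of the epithelial markers, 4 of 8 were well above background on each array, but Cdh1, Epcam and Krt8 were so on neither, whereas 8 of 9 mesenchymal markers were on both arrays. The 4 epithelial markers were not the same on the arrays, since Krt18 was well above background in control cells alone (25.7, against 20.4) and Krt5 in treated cells alone (165, against 5.51). The summed signal of the 9 mesenchymal markers, mostly Col1a2 and Col1a1, was 474081 in control and 430172 in treated cells. That of the 8 epithelial markers, mostly Trp63, was 2461 and 3205. These sums compare the arrays within a list and not the lists with each other. Of the odontogenic epithelial markers, Klk4 was well above background on both arrays, and Ambn, Amelx and Enam were on neither. The part of this composition in the results was not tested, and in RNA from whole cultures fewer cells of a type and less RNA per cell cannot be told apart.

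The 5 genes were read by 6 probes, 1 each and 2 for Wisp1, and all 6 were well above background on both arrays. The probes are shown because each value below is the light of the RNA that bound to this sequence. Positions follow the mm9 build used by the files. The Ctgf probe lies at chr10:24318281-24318340, the Cyr61 probe at chr3:145310187-145310246 on the minus strand, the Nov probe at chr15:54585236-54585295 and the Wisp2 probe at chr2:163658717-163658776. The brighter Wisp1 probe lies at chr15:66751555-66751612 and the other at chr15:66744444-66744503. Exons are not annotated in the files. For 5 of the probes the first 30 of the 60 bases are given, 5′ to 3′, and the second Wisp1 probe is given whole. Like every probe here except that of Nov, it has a reading frame without a stop codon. Capitals mark 4 cysteine codons in that frame, whereas the open frames of the other probes hold 0 or 1.
Ctgf: gtcaaatccctgttggtgaacaaatggcct
Cyr61: aagattagttgggccaagtgaaagccctgc
Nov: tgttatcagtgagtgactctggtattagtt
Wisp1, brighter probe: ggtgaggaccatagttgtgtcattctgttt
Wisp1, other probe: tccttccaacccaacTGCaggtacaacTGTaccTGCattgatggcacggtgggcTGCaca
Wisp2: gtatttgtaaaaatacacatctcttaaatg

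The family split into 3 genes with lower signal after CHIR99021 and 2 with a ratio above 1 that met no criterion. Ctgf was 3.57-fold lower, Wisp2 was 1.90-fold lower and Cyr61 was 1.59-fold lower than in control cells, whereas the ratio of treated to control signal was 1.42 for Wisp1 and 1.25 for Nov. The signals behind these ratios are given before scaling, each with the error that Feature Extraction assigns to a spot, which does not cover variation between cultures. The ratios were computed after each signal was divided by the 75th percentile of its array, 486.7 for control and 469.2 for CHIR99021. A gene was called lower when its ratio did not exceed 0.66 and its Z-score did not exceed -2.0, and higher when they reached 1.5 and 2.0, where the Z-score sets the log2 ratio against the 500 probes nearest in mean signal. By these criteria 3 of the 5 genes were lower, against 3.24% of all 18837 genes tested and 2.5% of the 16886 genes measured on both arrays, as the 5 were. None of the 5 was higher, against 2.67% of all genes. By the ratio alone, the same 3 genes lay at or under 0.66, against 9.67% of all genes, and none lay at or over 1.5, against 8.05%. When the Z-score was taken against all probes together, Ctgf alone stayed lower, with a Z-score of -2.03, against -0.74 for Cyr61 and -1.03 for Wisp2, and 2.80% of all genes were lower. The median log2 ratio of the 5 genes was -0.66, and that of all genes tested was 0.02.

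**Figure D1:**
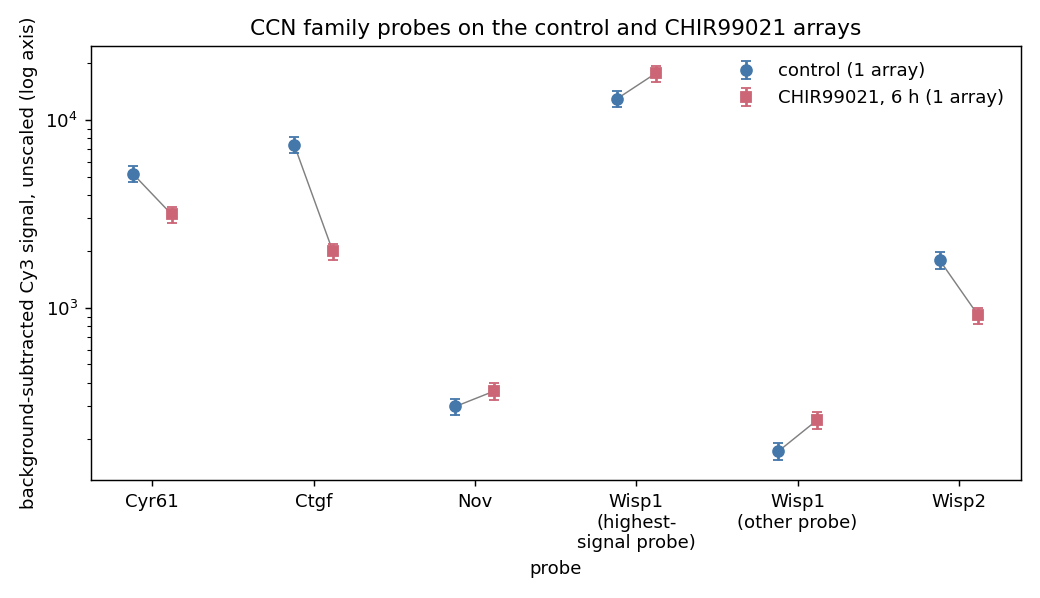
Background-subtracted Cy3 signal (log axis, arbitrary units, before scaling) of the 6 probes on the control array (circles) and the CHIR99021 array (squares), with the spot error of Feature Extraction as bars and 1 array per condition. The control symbol lies above the CHIR99021 symbol for Cyr61, Ctgf and Wisp2 and below it for Nov and both Wisp1 probes, and the heights of different probes are not comparable.

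Ctgf, a secreted protein that promotes matrix production and adhesion, had the largest difference of the family. The control array read 7391 ± 739 and the CHIR99021 array 1998 ± 199.9. The error ranges of the 2 spots lie far apart. This gave a ratio of 0.280, or -1.83 ± 0.20 on the log2 scale, and a Z-score of -5.83. No other of the 500 probes nearest in mean signal had as low a ratio, and none of the 3738 genes with a higher mean signal did. Among the 422 genes that were called lower and were measured on both arrays, Ctgf had the 41st lowest ratio, since dimmer genes held the lower ratios. At its signal a ratio of 0.661 would have reached the Z-score criterion.

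Cyr61, an adhesive ligand of integrins that is induced rapidly by growth factors, lay near the criteria. It read 5179.8 ± 518 in control and 3149.95 ± 315 in treated cells. The ratio was 0.631, and the log2 ratio of -0.66 had an error of 0.20 and a Z-score of -2.35. The spot errors do not overlap, yet the error of the ratio spans the criterion of 0.66. At this signal the Z-score criterion corresponds to a ratio of 0.680. Cyr61 had the 392nd lowest ratio of the 422 genes called lower and measured on both arrays. It had the 6th lowest ratio in its own window of 500 probes.

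Wisp2, which is known for restraining the growth of smooth muscle and some epithelial cells, lay between these genes. It read 1800.1 ± 180.1 in control and 913 ± 91.5 in treated cells, without overlap of the spot errors. The ratio was 0.526, and the log2 ratio was -0.93 with an error of 0.20 and a Z-score of -2.96. Like Cyr61, it had the 6th lowest ratio among the 500 probes nearest in mean signal. It had the 229th lowest ratio of the 422 genes called lower and measured on both arrays.

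Wisp1, a matrix protein first described as a Wnt1-induced gene, was brighter after CHIR99021 at both probes, but neither met the criteria for higher genes. The brighter probe read 12958 ± 1296 in control cells and 17701 ± 1770.1 in treated cells. Its ratio was 1.42, a log2 ratio of 0.50 with an error of 0.20 and a Z-score of 1.45. The other probe read 172 ± 17.9 and 252 ± 25.8. Its ratio of 1.52, a log2 ratio of 0.60 with an error of 0.21, passed the ratio criterion, whereas its Z-score of 1.31 did not pass. The 2 probes therefore differed from each other by less than the error of either ratio. In the brighter window, 27 of 500 probes had a ratio at least as high as Wisp1, itself included.

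Nov, a family member linked to cell quiescence and differentiation, had the smallest difference. It read 299 ± 30.3 in control and 361 ± 36.5 in treated cells. The error ranges of the 2 spots overlap. The ratio was 1.25, and the log2 ratio of 0.32 had an error of 0.21 and a Z-score of 0.84. Of all genes tested, 18.9% had a ratio at least as high. A sixth family gene, Wisp3, was not among the genes followed here and had 1 probe, which read 5.06 in control and 5.75 in treated cells and failed the background flag on both arrays.

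**Figure D2:**
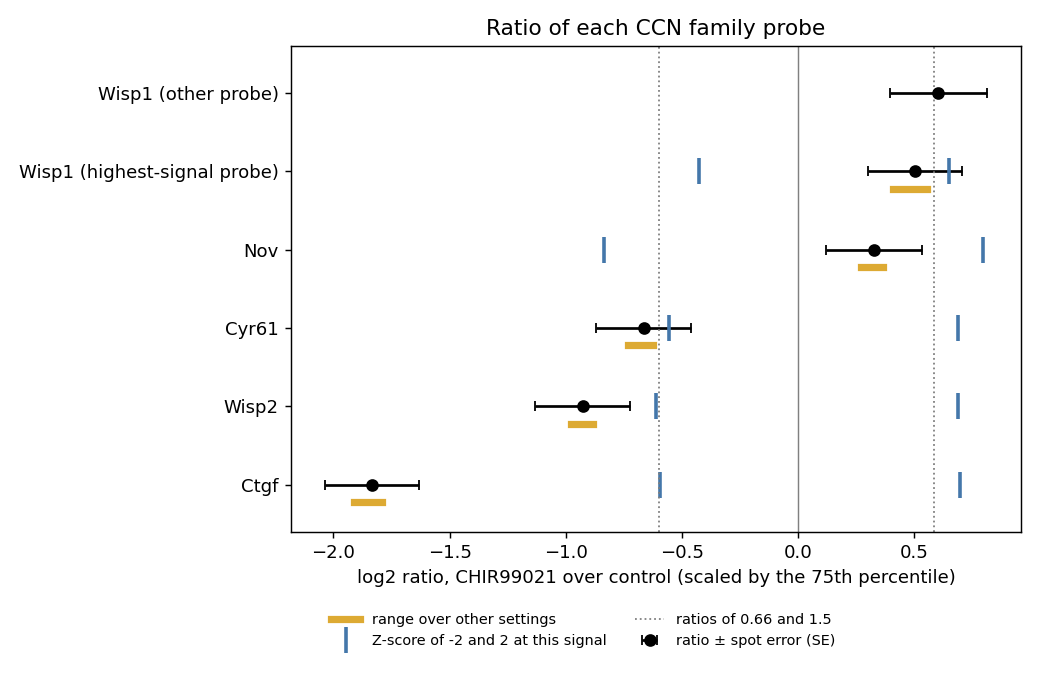
Log2 ratio of CHIR99021 over control for each probe (points, with the SE from the spot errors as bars), the range over the other processing settings (thick lines, highest-signal probes), the log2 ratios at which a Z-score of -2 or 2 is reached (ticks) and the ratios of 0.66 and 1.5 (dotted lines). Ctgf, Wisp2 and Cyr61 lie left of the lower tick and of the lower dotted line, and Nov and Wisp1 lie between their ticks.

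The order of the ratios ran from Ctgf through Wisp2, Cyr61 and Nov to Wisp1, a span of 2.34 on the log2 scale. Differences between members were set against the error of the difference, which was 0.29 for each of the 10 pairs. Ctgf lay 0.91 below Wisp2, 3.14 times that error. Cyr61 and Wisp2, which are neighbours in this order, differed by -0.26 (Wisp2 minus Cyr61), -0.908 times the error, which does not separate them. The SD between repeated spots was smaller than that difference. Its median was 0.04 for 4 repeated probes near the signal of Cyr61 and 0.06 for 4 near that of Wisp2. Nov lay 0.99 above Cyr61, 3.41 times the error. Wisp1 lay 0.18 above Nov, 0.613 times the error from Feature Extraction, which does not separate these neighbours either. The split between the lower genes and the other genes was thus larger than the spot error, and whether it exceeds variation between cultures was not measured.

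**Figure D3:**
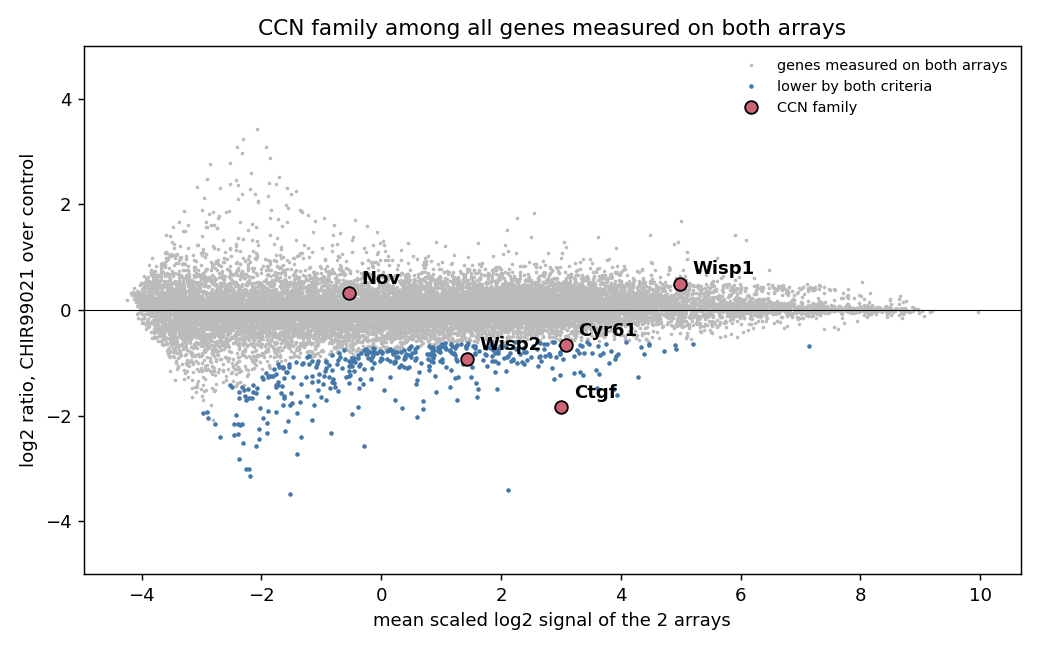
Log2 ratio of CHIR99021 over control against the mean scaled log2 signal of the 2 arrays for the 16886 genes measured on both arrays (grey), the 422 of them called lower (blue) and the 5 CCN genes (red). Ctgf lies below every gene to its right, Cyr61 lies near the upper edge of the lower genes and Wisp2 below it, and Nov and Wisp1 lie within the grey cloud.

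Large differences clustered in one part of the arrays. Rows after 192, of 384, held 90.5% of the 95 spots with a more than 4-fold difference between 2 measured signals, and 50.1% of all spots measured on both arrays. The probes of Ctgf, Wisp2 and the brighter Wisp1 probe lie in the earlier rows (73, 140 and 126). Those of Nov, the other Wisp1 probe and Cyr61 lie in the later rows (231, 278 and 367). No spot within 3 rows and columns of any of the 6 probes differed by more than 4-fold. The median log2 ratio of the adjacent spots ranged from -0.13 beside Nov to 0.20 beside the brighter Wisp1 probe, and it was 0.19 beside Ctgf and 0.01 beside Cyr61. The pixel SD over the mean signal was 0.112 to 0.216 for the 6 control spots, under the 99th percentile of 0.260 over measured spots of the earlier rows. Among 264 probes printed 10 times, the SD of the log2 ratio between spots of the same probe had a median of 0.03, below the size of each member's log2 ratio. It was 0.09 for the single such probe with a signal near that of Nov and 0.04 for the 3 near that of Ctgf.

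The genes with the most similar pair of scaled log2 signals were sought by Euclidean distance over the 2 arrays, among genes measured on both. For Ctgf these were Dio3os at 0.41, Npr3 at 0.43 and Hp at 0.54, with ratios of 0.405, 0.426 and 0.439, so that no gene came close to its values. For Cyr61 they were Zfp637 at 0.06, Tmem53 at 0.07 and Klf6, a zinc-finger transcription factor, at 0.09. For Wisp2 they were Dnajc30 at 0.02, Runx1t1 at 0.03 and Atg2a at 0.07, with ratios of 0.534, 0.516 and 0.560. Wisp1 lay nearest to Eif1ad at 0.05, Uck2 at 0.06 and BB713741 at 0.06. Nov lay nearest to Cml5 at 0.02, Gin1 at 0.03 and Lpin3 at 0.03. This likeness rests on 1 probe per gene and 2 arrays.

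The promoter of Cyr61 is shown because TEAD factors, the DNA-binding partners of YAP and TAZ, recognise the motif GGAATG. In the RefSeq promoter table used here (GRCm38.p6), 1 of the 5 genes was matched by gene ID, Cyr61 as Ccn1, and those of Ctgf, Nov, Wisp1 and Wisp2 were not analysed here. The 250 bases before the start of Cyr61 lie at chr3:145649986-145650235 on the minus strand. Capitals mark the only match to the motifs searched, GGAATG on the opposite strand at 103 to 98 bases before the start.
Cyr61: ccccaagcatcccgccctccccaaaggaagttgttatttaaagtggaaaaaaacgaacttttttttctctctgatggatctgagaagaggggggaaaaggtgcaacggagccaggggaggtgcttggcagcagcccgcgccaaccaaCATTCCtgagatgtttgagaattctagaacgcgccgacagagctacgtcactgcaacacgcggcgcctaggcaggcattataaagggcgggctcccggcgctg
On either strand, GGAATG was held by 12.6% of the 32851 promoter windows of this length. The TCF/LEF motifs CTTTGA and CTTTGT (27.6% of windows), the SMAD motifs GTCTAGAC and CAGACA (17.3%) and the CArG box of serum response factor (1.47%) had no match in this window. The matches describe letters and not binding.

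Genes linked to the family were described by lists. YAP and TAZ are coactivators held in the cytoplasm by Hippo kinases, and TEADs carry them to DNA. Of 22 YAP-TEAD targets outside the CCN family, all measured on both arrays, 3 (13.6%) were lower and 2 (9.09%) higher by both criteria, beside 3.24% and 2.67% of all genes tested. Lats2, a Hippo kinase that restrains YAP, had a ratio of 0.508, Amotl2, an angiomotin-like YAP binder, 0.525, and Crim1, a transmembrane cysteine-rich protein, 0.610. Fjx1 had a ratio of 2.08 and Tgfb2, a TGF-β ligand, 1.94, while Ankrd1, a further standard YAP target, had 1.16. Of the other genes, Dock5 (1.52, past the ratio criterion alone), Asap1 (1.42), Nuak2 (0.696) and Ajuba (0.740) had the ratios farthest from 1. The median log2 ratio of the list was 0.02, and its sign turned under 6 of 9 other settings of scaling, background or filter. Ctgf thus had a lower ratio than any of these 22 genes. Of the 7 factors themselves, all had a ratio below 1 and Tead3 alone was called lower, at 0.515, which is 1 of 7 beside 3.24% of all genes. The median log2 ratio of all genes tested was 0.02, so that fewer of them lay below 1 than above it. Yap1 had a ratio of 0.906, Wwtr1, which encodes TAZ, 0.876, Tead1 0.824 and Vgll4, a TEAD-binding cofactor, 0.744, and the list's median log2 ratio was -0.19, which became -0.30 with quantile normalization and with the authors' normalized table.

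Receptors and binding partners of CCN proteins, 22 of 24 with a tested probe, had a median log2 ratio of -0.01, whose sign turned under 2 of 9 settings. Bmp4, a ligand that CCN proteins bind, was called lower at 0.639, and Vegfa, an angiogenic ligand, higher at 1.73, so that 1 of 22 was called in each direction, beside 3.24% and 2.67% of all genes. Among integrin subunits of the classical CCN receptors, the ratio was 1.00 for Itgav and 1.03 for Itgb1, and Itgb5, at 0.684 with a Z-score of -2.33, passed the Z-score criterion but not that of the ratio. The integrin subunits Itgb2 (1.95) and Itga2b (0.579) and the receptor Notch1 (1.61) passed the ratio criteria but not the Z-score, with values of 1.30, -0.64 and 1.84. Itgb3, at 0.669, missed both, and Lrp1, a scavenger receptor for Ctgf, had a ratio of 0.982. None of the 14 TGF-β-SMAD targets was lower by both criteria and 1, Pmepa1, a feedback inhibitor of the pathway, was higher at 1.96, counts too small to set apart from the 3.24% and 2.67% of all genes. The list median of -0.03 turned sign with median scaling. Smad6, an inhibitory SMAD, passed the ratio criterion at 0.583 but not that of the Z-score (-1.74). Smad7 (1.26), also an inhibitory SMAD, Snai2 (0.710), a transcriptional repressor, and Tgfbi (0.748), a matrix protein, passed neither. Of 17 targets of serum response factor none met both criteria in either direction, which in so short a list is near the 3.24% and 2.67% of all genes. The median log2 ratio of that list was -0.20, beside 0.02 for all genes tested. In the list, 13 genes were below 1, such as Acta2, smooth muscle actin, at 0.832 and Tpm1, a tropomyosin, at 0.737. Fos, an immediate early factor, passed the ratio criterion alone, at 0.622 with a Z-score of -1.61. Cnn2, a calponin, at 0.685, and Myl9, a myosin light chain, at 0.753, passed the Z-score criterion alone (-2.22 and -2.37), and Fosb, at 0.722, passed neither.

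Wnt feedback genes, which report β-catenin activity, served as a check of the labels. Of 15 tested, 5 were called higher and none lower, beside 2.67% and 3.24% of all genes, with a median log2 ratio of 0.67. Over the 12 measured on both arrays the median was 0.55. The rest, Nkd1 among them, passed the filter through the treated array alone. Of the genes called higher, Nkd2 (row 289), Lef1 (294), Rnf43 (324) and Nkd1 (368) lie in the later rows. Apcdd1 (23) lies in the earlier rows. The part of array position in these ratios was not tested. Lef1, a transcription factor that partners β-catenin, had a log2 ratio of 1.58, and the ratio was 2.49 for Rnf43, a ligase that removes Wnt receptors, 2.19 for Apcdd1, a Wnt inhibitor, and 1.79 for Nkd2. Nkd1, an intracellular inhibitor, and Axin2, a scaffold of the β-catenin destruction complex, were not well above background in control cells, so that their ratios are bounds, at least 25.8-fold for Nkd1, which was called higher, and at least 1.66-fold for Axin2, which was not (Z-score 0.92), set against the dimmest signal well above background on the control array or the probe's own if brighter. Znrf3 (1.59) and Tcf7 (1.55) passed the ratio criterion but not that of the Z-score (1.85 and 1.51), and Lgr5 (1.39) and Wif1 (0.713) passed neither. Wisp1, at 1.42, had a lower ratio than the genes called higher, while Ccnd1, at 1.18, lay below Wisp1. Wisp2, named for its induction by Wnt1, had a ratio of 0.526 on the same arrays.

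**Figure D4:**
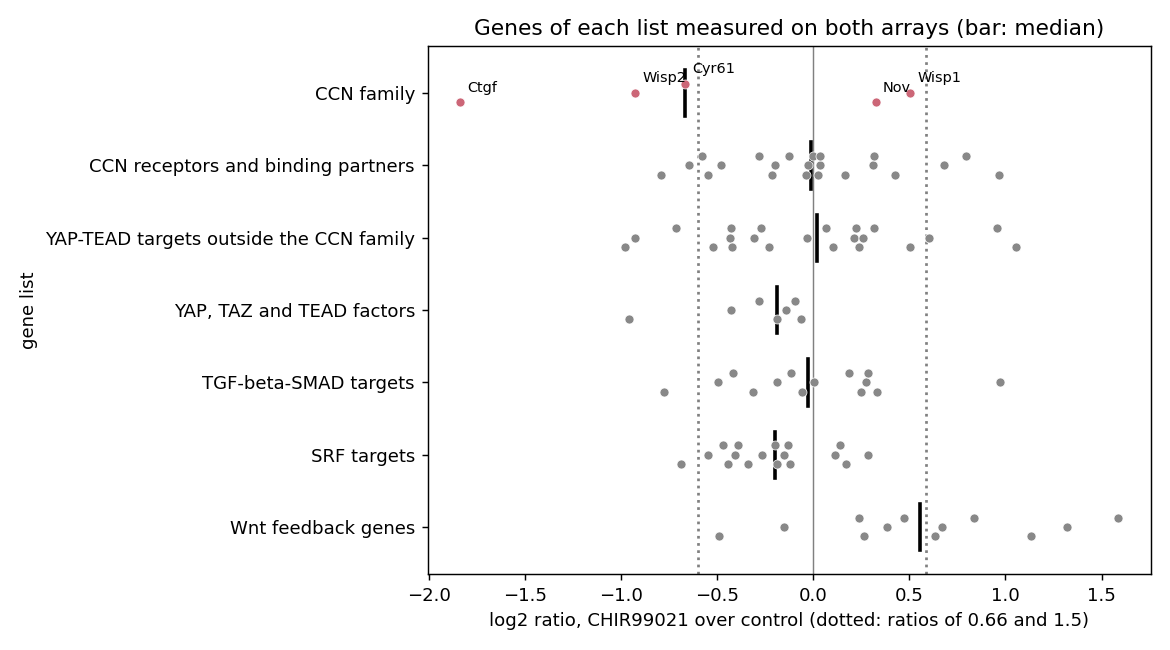
Log2 ratio of CHIR99021 over control for each gene measured on both arrays (points), by list, with the list's median over these genes as a bar and the ratios of 0.66 and 1.5 as dotted lines. Ctgf lies left of all genes of the other lists, the CCN median is at -0.66, and the Wnt feedback median over genes measured on both arrays is at 0.55.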

How the data were processed

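Total RNA from 1 control and 1 CHIR99021-treated culture of mDE6 cells was measured. The authors deposited intensity values for every spot, quantified with Agilent Feature Extraction (10.7.1.1 per the file headers, 9.5.1.1 in the submitters' processing notes) with background subtracted and no normalization between arrays, and other columns per the file headers with quality flags, pixel SDs and spot errors. They also deposited a table of normalized intensity, whose method is not given in the sources used here. The methods of the study name a human array, and the headers name a mouse design on mm9.

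Control spots and spots flagged as outliers on either array were left out. Repeated spots were averaged, which left 28066 probes detected (well above background) on 1 or both arrays. Each gene was read from its brightest probe by mean signal. The log2 intensity minus the 75th percentile of the array was compared in Python 3.11.15 (pandas 2.3.3, numpy 2.4.6) and drawn with matplotlib 3.10.9. The error of a log2 ratio combines both spot errors. The Z-score criterion, printed without a sign in the methods of the study, was read as negative for lower genes. The Z-score step was tested on simulated data. All 6 probes matched the gene table of GRCm38.p6 by accession. Alternatives used quantile, median, cyclic loess and no scaling, another percentile, normexp with an offset of 50 (limma 3.58.1, R 4.3.3), the authors' table, other filters, Z-scores and probe rules, and the earlier rows alone. Genes named were the 5 members, Wisp3, the 3 nearest genes per member, and in each list the genes past both criteria and up to 4 others, among those measured on both arrays, with the largest log2 ratios in size; Ankrd1, Itgav, Itgb1, Itgb5, Lrp1, Acta2, Myl9, Axin2 and Ccnd1 were chosen after their values were seen, as standard members of their lists or as genes past 1 criterion. Some items are not reported here. The members and lists were chosen with earlier results of these data known.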

Additional observations from a re-analysis of the deposited data

How the results depend on the processing

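No paired analysis was possible because there was a single array on either side. Ctgf, Cyr61 and Wisp2 kept a ratio below 1, and Nov and Wisp1 a ratio above 1, in all alternatives with a value for that gene. The ratio ranged from 0.266 to 0.289 for Ctgf, 0.507 to 0.543 for Wisp2, 0.602 to 0.649 for Cyr61, 1.21 to 1.29 for Nov and 1.33 to 1.47 for Wisp1. The count of 3 lower genes became 1, Ctgf alone, when the Z-score used the mean and SD of all probes together, with 527 of all genes lower (2.80%). In the setting reported, 610 of all genes were lower, against 1018 with the median and MAD in the Z-score and 1822 by the ratio alone, which drops a criterion. With the earlier rows alone, Cyr61 and Nov have no probe, 2 of 3 genes were lower, beside 2.83% of the 10885 genes in those rows, and the median log2 ratio was -0.93. This median, -0.66, became -0.73 with quantile normalization, cyclic loess and the authors' normalized table, -0.72 with no scaling and with the percentile taken over probes detected on both arrays, -0.63 with normexp and -0.62 with median scaling. The cause was not tested.

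Without a filter on dim probes the median of all genes moved by 0.16. The median of the YAP-TEAD targets, 0.02, became -0.0315 with quantile normalization, -0.0346 with no scaling, -0.0335 with the other percentile, -0.0338 with cyclic loess, -0.0316 with the authors' table and -0.0188 with normexp. That of the receptors and partners, -0.01, became 0.0285 with median scaling and 0.0140 with no filter, and that of the TGF-β-SMAD targets, -0.03, became 0.0146 with median scaling. That of the YAP, TAZ and TEAD factors, -0.19, ranged from -0.30 to -0.15 over the scaling, background and filter settings. Signal over background left Wisp3 without a ratio.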
